A study of Saccharomyces cerevisiae with 4 samples.

Results

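The 10 genes described here carry calcium signals in the budding yeast Saccharomyces cerevisiae, and they are 10 of the 5539 genes with named spots on the arrays. They comprise 4 calcium channel genes (CCH1, MID1, ECM7 and YVC1), 3 pump or exchanger genes (PMC1, PMR1 and VCX1) and 3 genes of the calcineurin arm (CNB1, CRZ1 and RCN1). They were picked by gene symbol, and the group was put together after values of these arrays had been seen, among them the large mean ratios of YVC1 and ECM7. Their values for the treatment contrast are therefore a description and carry no test. All 10 were found on the array, and 9 had a value on all 4 arrays, since MID1 had none on array 1.

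Every array set RNA of Congo red treated cells against RNA of untreated cells. The treated cells were slt2 deletion cells of the BY4741 laboratory background, grown in rich medium at 24 °C and collected 4 h after Congo red was added to 30 µg/ml. The untreated cells were the other part of the same divided culture, without the dye, and carried the same deletion of SLT2. SLT2 encodes the last kinase of the cell wall integrity pathway, and Congo red binds chitin and disturbs the wall. Because SLT2 is missing from both channels, its spots cannot check the labels. Treated RNA was in channel 2 on arrays 1 and 3 and in channel 1 on arrays 2 and 4, and array numbers are those of the labels. The labels do not say whether the arrays came from separate cultures, so the SDs and p-values below cover array-to-array spread alone, and that spread could be technical.

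In yeast, stress at the wall or membrane lets calcium in through a plasma membrane channel, and calcium can also leave the vacuole through Yvc1. Calcium bound to calmodulin switches on the phosphatase calcineurin, which removes phosphate from the transcription factor Crz1, and Crz1 then enters the nucleus and switches on its target genes. The pumps return calcium to the vacuole and the Golgi, and some of them are themselves Crz1 targets. The calcineurin route runs beside the Slt2 kinase in the response to wall damage.

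Each deposited value is a log2 ratio between the channels of a spot, and its numerator is not named by the labels. There are 2 ways to read them. If every ratio is channel 2 over channel 1, arrays 2 and 4 must be multiplied by -1 for a positive value to mean more treated RNA; these are called turned values below. If the authors had already set treated over untreated RNA before deposit, the as-deposited values hold the effect of Congo red and the turned values hold an effect of channel order. The labels do not settle which reading applies, so both are given for each member and each Crz1 target. A numerator the other way round would reverse all signs of a reading together. Before turning, arrays of opposite channel order had negative correlations across spots (-0.38 to -0.19), and the pairs that shared a channel order had positive ones (0.27 and 0.31). A treatment effect in channel ratios gives that pattern, and so does a channel effect in ratios that were already turned.

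Across the 4481 genes measured on all 4 arrays, 41.7% had the same sign on all 4 arrays in turned values and 7.45% in as-deposited values. In turned values, 0 genes passed limma's test against 0 at an adjusted p of 0.05 (0% of 4481). The smallest adjusted p was 0.0522 (limma), and 1234 genes had an unadjusted p under 0.05 (27.5%). That fit held the turned effect alone, with no channel term. In as-deposited values, 0 genes passed (0%) when limma estimated the turned effect in the same model, and 182 had an unadjusted p under 0.05 (4.06%). An analysis restricted to genes with at least 2 spots within 1 log2 unit of each other on every array was kept from earlier work on these data, where it had been added after its counts of calls were seen. It tested 2804 genes, of which 472 passed in turned values (16.8%) and 1 in as-deposited values (0.0357%). These counts came from the same unlike models. With a constant as the only term, 0 genes passed as deposited.

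YVC1 and ECM7, of the channel genes, had large turned means of opposite sign. YVC1, the vacuolar calcium channel, had turned log2 ratios of 1.32, 1.16, 0.99 and 1.35 on arrays 1 to 4 (mean 1.21 ± 0.17, SD, n = 4, or 2.31-fold). Its arrays did not rest on the same spots: the pair of spots measured on all 4 arrays alone averaged 1.32, 0.63, 0.64 and 1.35 (mean 0.99 ± 0.40). ECM7, a membrane protein tied to high-affinity calcium influx, had -1.50, -1.46, -1.36 and -1.87 (mean -1.55 ± 0.22, or 0.342-fold). Both kept their sign on 4 of 4 arrays, and neither range came near 0. As deposited, YVC1 alternated between 1.32, -1.16, 0.99 and -1.35 with the channel order, and its mean was -0.05 ± 1.40. ECM7 alternated too, with an as-deposited mean of 0.12 ± 1.79, so in that reading neither gene had a mean beyond its spread.

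CCH1 and MID1 encode the pore and the stretch-responsive partner of the plasma membrane calcium channel. CCH1 gave turned values of -0.24, -0.66, -0.21 and 0.32 (mean -0.20 ± 0.40), so the arrays disagreed on its sign. MID1 gave turned values of -0.11, 0.48 and -0.11 on arrays 2 to 4 (mean 0.09 ± 0.34, n = 3). As deposited, CCH1 had a mean of -0.03 ± 0.46, whereas MID1 lay above 0 on its 3 arrays at 0.11, 0.48 and 0.11 (mean 0.23 ± 0.21). However, the MID1 spots took opposite signs on arrays 2 and 4, and its array 3 value rested on 1 spot. Neither gene had a turned mean larger than its SD.

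**Figure D1:**
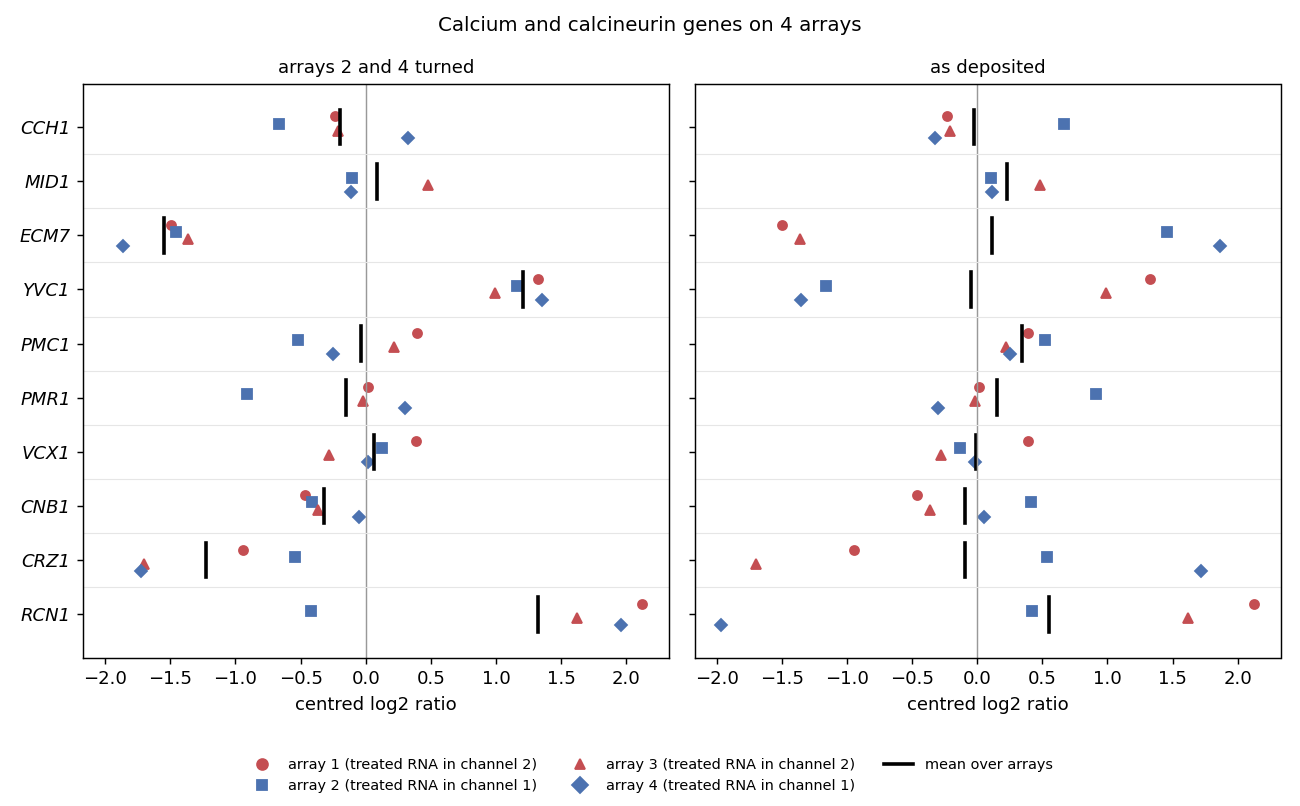
Centred log2 ratios (horizontal axis) of the 10 calcium and calcineurin genes on each array, with arrays 2 and 4 turned (left) and as deposited (right). Points are arrays, red where treated RNA was in channel 2 and blue where it was in channel 1, and black bars are means over arrays. YVC1, ECM7 and CRZ1 cluster on one side of 0 on the left and split by channel order on the right, while PMC1 does the reverse.

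Among the pumps, PMC1 was the one whose arrays agreed in the as-deposited reading. PMC1, the calcium ATPase of the vacuole and a known Crz1 target, had as-deposited log2 ratios of 0.39, 0.52, 0.22 and 0.25 on arrays 1 to 4 (mean 0.35 ± 0.14, n = 4, or 1.27-fold). All 4 lay above 0, as for 3.91% of all genes, and leaving out any one array kept the mean between 0.29 and 0.39. PMC1 did not pass over all genes in the as-deposited limma fit (adjusted p = 0.872, unadjusted p = 0.0658). In turned values its arrays split, at 0.39, -0.52, 0.22 and -0.25 (mean -0.04 ± 0.42).

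PMR1, the calcium and manganese ATPase of the Golgi, had as-deposited values of 0.01, 0.91, -0.02 and -0.30 (mean 0.15 ± 0.53) and a turned mean of -0.15 ± 0.52. One array, array 2, carried most of either mean. VCX1, the vacuolar exchanger of protons and calcium, stayed close to 0 in both readings, with turned values of 0.39, 0.13, -0.28 and 0.02 (mean 0.06 ± 0.28) and an as-deposited mean of -0.01 ± 0.28. The as-deposited adjusted p from limma was 0.915 for PMR1 and 0.996 for VCX1.

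In the calcineurin arm, the regulatory subunit, the transcription factor and the feedback regulator each behaved differently. CNB1, which encodes the regulatory subunit of calcineurin, had small turned values below 0, at -0.46, -0.41, -0.36 and -0.05 (mean -0.32 ± 0.18, or 0.800-fold). CRZ1, the transcription factor itself, had larger ones at -0.94, -0.54, -1.70 and -1.72 (mean -1.23 ± 0.58, or 0.427-fold). Both were below 0 on 4 of 4 arrays, while CRZ1 spread over more than 1 log2 unit. The CNB1 spots took opposite signs on array 4. As deposited, CNB1 had a mean of -0.09 ± 0.40 and CRZ1 of -0.10 ± 1.53, and for both the sign followed the channel order.

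RCN1, the calcineurin-binding regulator that is also a Crz1 target, was the most uneven of the group. Its turned values were 2.12, -0.42, 1.62 and 1.96 (mean 1.32 ± 1.18), and its as-deposited values were 2.12, 0.42, 1.62 and -1.96 (mean 0.55 ± 1.82). It was above 0 on 3 of 4 arrays in either reading, with array 2 apart in the first and array 4 apart in the second. Leaving out an array moved the turned mean between 1.06 (without array 1) and 1.90 (without array 2). The as-deposited mean moved more, between 0.03 without array 1, 0.19 without array 3 and 1.39 without array 4.

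In turned values, 1 member was above 0 on 4 of 4 arrays (YVC1) and 3 were below (ECM7, CNB1 and CRZ1), of the 9 measured on all arrays. Over all genes those shares were 20.4% and 21.3%. In as-deposited values 1 member was above 0 on 4 of 4 arrays (PMC1) and 0 were below, against 3.91% and 3.55% of all genes. The members' median was -0.15 turned and -0.01 as deposited, against 0.02 and 0.04 over all 4481 genes. As deposited, no member passed in the analysis of all spots, where 0% of genes did. None passed in that of agreeing spots either, where 4 members were tested and 0.0357% of genes passed. The members were chosen with turned values known, so nothing is read from their counts in that reading.

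**Figure D2:**
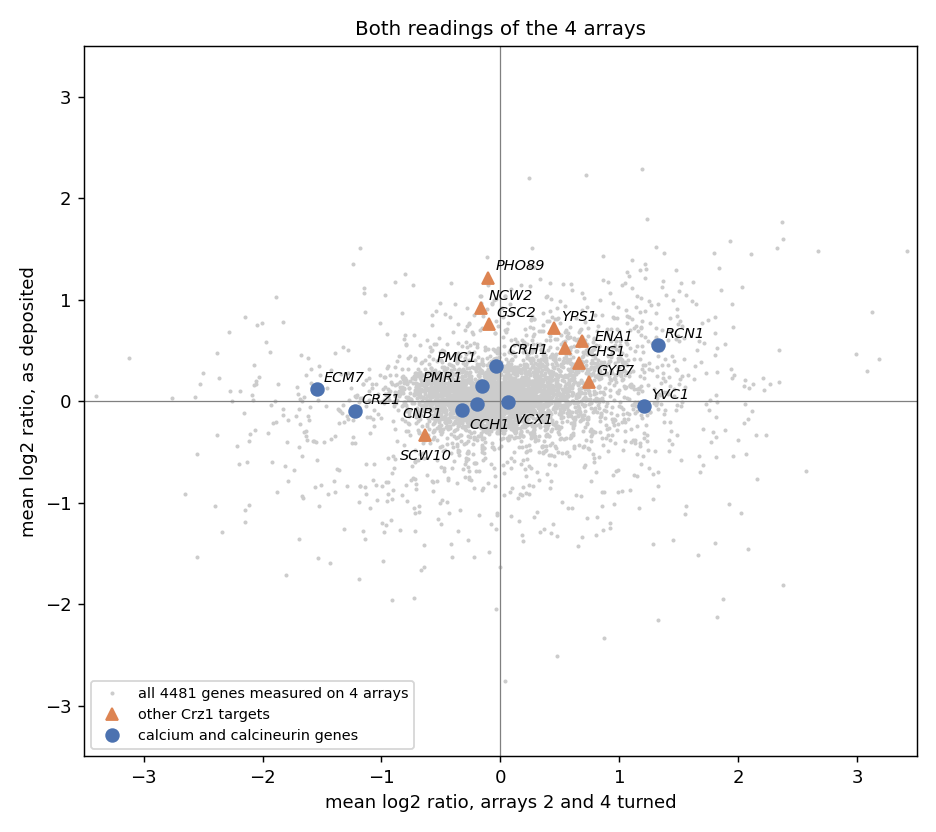
Mean log2 ratio over 4 arrays with arrays 2 and 4 turned (horizontal axis) against the mean as deposited (vertical axis). Grey dots are all 4481 genes measured on 4 arrays, blue points 9 calcium and calcineurin genes and orange triangles 9 other Crz1 targets. YVC1, RCN1, ECM7 and CRZ1 lie far out along the horizontal axis, and PHO89, NCW2 and GSC2 along the vertical one.

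The size of a member's turned mean went with how well its spots were measured. The 4 members with a turned mean over 1 log2 unit in size (YVC1, ECM7, CRZ1 and RCN1) were all among the 5 of 9 that lacked agreeing spots on at least 1 array. The 4 with agreeing spots on every array (PMC1, PMR1, VCX1 and CNB1) had spot pairs no more than 0.395 log2 units apart. Over all genes, 27.5% of the 1677 without agreeing spots on some array had a turned mean over 1 in size, against 1.75% of the 2804 with agreeing spots. The median size of the turned mean was 0.595 in genes without such spots and 0.258 in genes with them. Spot brightness was not analysed here, and the part that weak spots play in these values was not tested.

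Single spots of the members differed in how closely they agreed. YVC1 has 2 pairs of spots at separate places on the array. One pair gave turned values of 0.66 and 0.60 on array 2 and of 0.76 and 0.53 on array 3, and the other gave 2.00 and 1.37 on array 2 and 1.44 and 1.24 on array 3. All 12 measured YVC1 spot values were above 0, with the second pair higher than the first on both arrays that measured it. All 7 measured ECM7 spot values were below 0, and its array 4 value rested on 1 spot. The ECM7 spots on array 1 read -2.02 and -0.98. RCN1 had both spots on arrays 2 and 4 only, and on array 4 they read 0.96 and 2.96. CRZ1 read -1.55 and -0.34 on array 1, where its spots were 1.20 log2 units apart, and its array 2 value rested on 1 spot. For CCH1 the array 4 spots took opposite signs, at 1.03 and -0.38. So did the MID1 spots on array 2 (0.15 and -0.36) and array 4 (-0.36 and 0.14). The CNB1 spots also did on array 4 (0.14 and -0.25), as did PMR1 on arrays 1 and 3 and VCX1 on array 4.

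**Figure D3:**
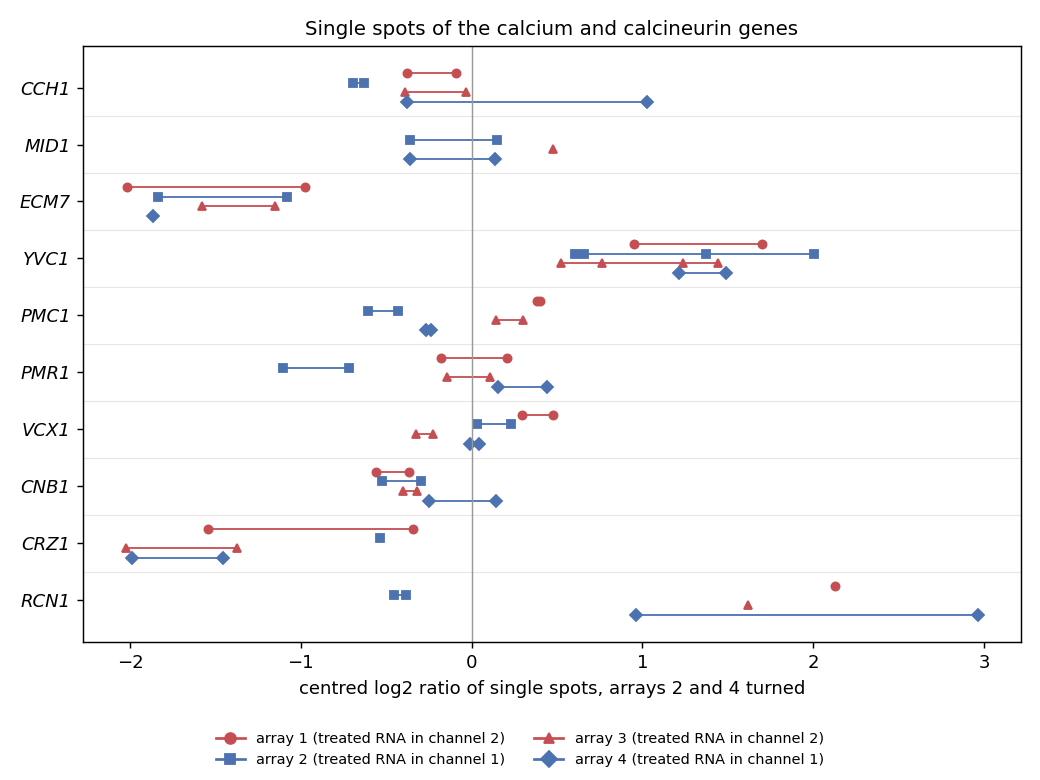
Centred log2 ratios of single spots (horizontal axis) for the 10 genes, arrays 2 and 4 turned. Each point is a spot, lines join the spots of one gene on one array, and colours mark the channel of the treated RNA. PMC1, VCX1 and CNB1 spots lie close together, while RCN1 on array 4 spans 2.00 log2 units and CCH1 on array 4 crosses 0. Spot pairs of MID1, PMR1, VCX1 and CNB1 also cross 0 on some arrays.

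Of 11 other genes known as Crz1 targets, 9 were measured on all 4 arrays, and 8 of the 9 had an as-deposited mean above 0, against 58% of all genes. On 4 of 4 arrays 3 were above 0 and 0 below in that reading, against 3.91% and 3.55% of all genes. In turned values 5 of the 9 had a mean above 0 (51.6% of all genes) and 1 was above 0 on 4 of 4 arrays. The list's median was 0.59 as deposited and 0.45 turned, against 0.04 and 0.02 over all genes. The list was drawn up from general knowledge with turned results of these arrays known, and the as-deposited values are a different contrast of the same arrays.

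PHO89, a plasma membrane phosphate transporter driven by sodium, had as-deposited log2 ratios of 1.05, 1.32, 1.18 and 1.32 (mean 1.22 ± 0.13, n = 4, or 2.32-fold). It was the 1 gene of 2804 that passed in as-deposited values among genes with agreeing spots (adjusted p = 0.0245, limma), and it did not pass in the analysis of all spots (adjusted p = 0.872, limma). The call also needed the turned effect in the model: with a constant as the only term, PHO89 had an adjusted p of 0.361 (limma) and 0 of the 2804 genes passed. With any one array left out PHO89 was not called, although 2 other genes were without array 1 and 9 without array 3. With all 4 arrays PHO89 stayed called when values were not centred and when each run of 400 spots was centred on its own median. The same held with a gene length trend removed and with spots within 0.5 log2 units. The turned values of PHO89 split by channel order, with a mean of -0.10 ± 1.41.

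NCW2, a cell wall protein, had as-deposited values of 0.89, 1.12, 0.62 and 1.05 (mean 0.92 ± 0.22) and did not pass (adjusted p = 0.0629 with agreeing spots and 0.872 with all spots, limma). GSC2, the catalytic subunit of glucan synthase that yeast makes under stress, had 0.51, 1.51, 0.82 and 0.20 (mean 0.76 ± 0.56). These were the other two targets above 0 on every array. In turned values NCW2 averaged -0.16 ± 1.07 and GSC2 averaged -0.09 ± 1.04. In the all-spot model that also held the turned effect, all 4481 genes were ordered from the highest as-deposited moderated t. PHO89 stood at rank 2, NCW2 at 8, YPS1 at 44, GSC2 at 106, ENA1 at 128, PMC1 at 149, CHS1 at 159 and CRH1 at 501. RCN1 was at rank 877, PMR1 at 1681, GYP7 at 1752 and SCW10 at 4014. The ranks thus ran from 2 to 4014, and only SCW10 stood below rank 1752.

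CMK2, a calmodulin-dependent kinase, and PUN1, a plasma membrane protein, had no value on array 1. CMK2 had as-deposited values of 1.72, 2.41 and 0.74 on arrays 2 to 4 (mean 1.62 ± 0.84, n = 3), and PUN1 had 0.79, 0.30 and 0.24 (mean 0.44 ± 0.30, n = 3). Both were thus above 0 wherever they were measured, while their turned values split by channel order (means -0.02 ± 2.16 and -0.24 ± 0.54).

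The remaining targets did not agree over arrays in the as-deposited reading. YPS1, a protease anchored in the wall and membrane, had 1.35, 0.63, 0.99 and -0.10 (mean 0.72 ± 0.62), and ENA1, a sodium pump, had 1.49, 0.38, 1.07 and -0.58 (mean 0.59 ± 0.90). ENA1 has near-identical neighbouring copies, so its spots may read more than 1 gene. CRH1, which links chitin to glucan, had a mean of 0.52 ± 0.91, of which array 1 alone gave 1.86. GYP7, an activator of GTP hydrolysis by Rab proteins, averaged 0.19 ± 1.10, and SCW10, a wall protein related to glucanases, averaged -0.33 ± 0.87. The turned means were 0.45 ± 0.90 for YPS1, 0.69 ± 0.81 for ENA1 and 0.54 ± 0.90 for CRH1. They were 0.74 ± 0.73 for GYP7 and -0.63 ± 0.60 for SCW10. These genes did not agree in sign over arrays in turned values either. Among agreeing spots ENA1 passed in turned values without array 2, where 215 of 2861 genes did (limma). As deposited, the array that stood below 0 for YPS1, ENA1 and GYP7 was array 4, as for RCN1. With arrays 1 to 4 left out in turn, 5 of 11, 4 of 9, 3 of 9 and 6 of 9 targets were above 0 on the remaining arrays, against 6.21%, 9.78%, 10.9% and 9.66% of all genes.

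CHS1, a chitin synthase, was the 1 listed target above 0 on 4 of 4 arrays in turned values. Its turned values were 1.27, 0.33, 0.80 and 0.25 (mean 0.66 ± 0.47), and its as-deposited mean was 0.37 ± 0.79. Among genes with agreeing spots CHS1 passed in turned values (adjusted p = 0.0464, limma), where 16.8% of genes passed. That call was lost when any one array was left out, when a trend with gene length was removed, with values not centred and with each run of 400 spots centred on its own median.

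**Figure D4:**
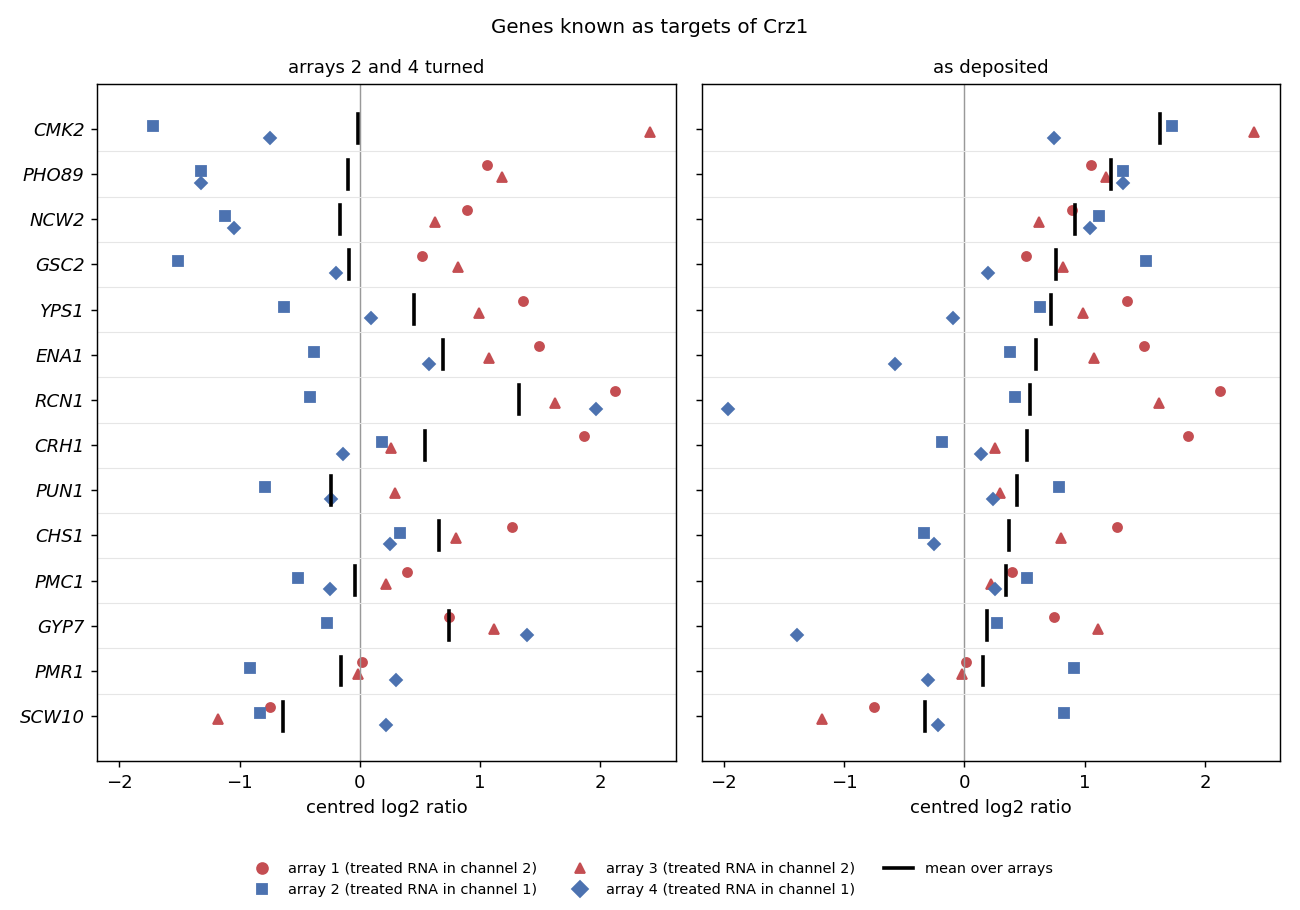
Centred log2 ratios (horizontal axis) of 14 genes known as Crz1 targets, PMC1, PMR1 and RCN1 among them, with arrays 2 and 4 turned (left) and as deposited (right), in order of the as-deposited mean. Points are arrays coloured by the channel of the treated RNA and bars are means. CMK2, PHO89, NCW2, GSC2, PUN1 and PMC1 lie above 0 on every array that measured them on the right and split by channel order on the left.

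The genes that act around calcineurin gave 0 calls in either direction. Of 10 genes, 6 were measured on all arrays, where 0% of all genes passed in the analysis of all spots. Only 4 had agreeing spots, where 16.8% of all genes passed in turned values and 0.0357% as deposited. With runs of 400 spots centred, CMD1 (calmodulin) and MSN5 (the exporter of Crz1) did pass in turned values among agreeing spots, where 615 of 2804 genes did. CMD1 also passed with spots within 0.5 log2 units, where 465 of 2133 genes did. Of the genes on 4 arrays, CNA1 and MCK1 had the turned means of greatest size. CNA1, a catalytic subunit of calcineurin, had turned values of 2.39, 1.40, 1.50 and -0.05 (mean 1.31 ± 1.01), above 0 on 3 of 4 arrays. Its spots read 3.89 and 0.89 on array 1 and 0.16 and -0.25 on array 4. MCK1, a kinase of the GSK-3 family, was below 0 on 4 of 4 arrays in turned values (mean -0.55 ± 0.59), with -1.39 on array 2. The as-deposited means were 0.63 ± 1.66 for CNA1 and 0.18 ± 0.85 for MCK1. CNA1 did not pass over all genes (adjusted p = 0.134 turned and 0.872 as deposited, limma).

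Of 7 other genes of calcium influx and transport, 6 were measured on all arrays, and 1 of 5 with agreeing spots passed in turned values, where 16.8% of all genes did. This was PRM6, a potassium transporter needed with its relative KCH1 for calcium influx in mating, with turned values of 3.17, 0.01, 2.04 and 1.02 (mean 1.56 ± 1.35, adjusted p = 0.0451 with agreeing spots and 0.156 with all spots, limma). PRM6 was also not called without array 1, 3 or 4 or with the length trend removed. With spots within 0.5 log2 units PRM6 was not tested, because its spots lay up to 0.627 apart. At that setting GDT1, of the same list, passed in turned values (mean 0.40 ± 0.04), where 465 of 2133 genes did. Its as-deposited mean was 0.01 ± 0.46. The as-deposited mean of PRM6 was 1.04 ± 1.90.

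The lipid kinase complex that makes the activator of Yvc1 gave 0 calls among its 5 measured genes, where 0% of all genes passed. Only 2 of them had agreeing spots and 0 passed there, where 16.8% of all genes did in turned values. VAC7, an activator of the kinase, was above 0 on 4 of 4 arrays in turned values, at 0.82, 0.30, 1.73 and 2.37 (mean 1.31 ± 0.92). VAC7 rested on 1 spot on arrays 1 and 3, and its array 4 spots read 1.16 and 3.585. FAB1, the kinase, was below 0 on 4 of 4 arrays (mean -0.53 ± 0.45). As deposited, VAC7 averaged -0.03 ± 1.77 and FAB1 -0.38 ± 0.62. Among 4 other calcineurin substrates and partners, 3 were measured on all arrays and 0 passed, where 0% of all genes did. With agreeing spots 2 were tested and 0 passed, where 16.8% of all genes did in turned values. FRT2, a partner of the calcineurin substrate Frt1, had turned values of 2.14, 1.32, 1.41 and 1.25 (mean 1.53 ± 0.41, adjusted p = 0.0550, limma) and alternated with the channel order as deposited, with a mean of 0.25 ± 1.79. The FRT2 value on array 4 rested on 1 spot. With each run of 400 spots centred on its own median, VAC7 and FRT2 did pass in turned values, where 214 genes did. SLM1, a phosphoinositide-binding substrate, averaged 0.23 ± 0.40 turned and 0.09 ± 0.47 as deposited.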

How the data were processed

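The deposited table holds log2 ratios of the 2 channels for 12800 spots on 4 arrays, and per the labels each array compared treated with untreated RNA. The labels name no scanner, background correction, normalization or dye. A top value equal to the log2 of a ratio of 100000 was taken as a placeholder and set to missing (31 to 68 spots per array), which left 84.1% to 90.9% of spots. Deposited medians ran from -0.25 to 0.64, so each array was centred on its median.

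The platform annotation names 11138 spots. Symbols were updated through the RefSeq gene table (assembly R64, no coordinates used), and spots of one gene were averaged. Tests used limma 3.58.1 in R 4.3.3 (lmFit, eBayes, Benjamini-Hochberg, threshold 0.05) over all genes, and were tested on simulated data. The planned design took turned values as the treatment effect and a constant term as the channel effect. Turned calls came from a fit with the turned effect as its only term, so no channel term was modelled there. As-deposited calls came from a fit with both terms, unless a constant is named as the only term. The members, the 5 lists of pathway genes and the duplicate-spot analysis were chosen with earlier results of these data known. Named genes are the members, every Crz1 target, and per other list the genes that passed or else the 2 with the largest turned means among genes measured on all 4 arrays. The number of arrays limits the precision.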

Additional observations from a re-analysis of the deposited data

Results flagged for a closer look

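Among the members and pathway genes with values on all 4 arrays, 38 genes were examined in both readings for an array far from the other three, and 3 of 76 sets of values had one, where chance gives about 1 in 20. CCH1 stood at 0.66 on array 2 as deposited, against -0.32 to -0.21 on the others. PLC1, phospholipase C, stood at -6.23 on array 1 in turned values, against 0.49 to 1.47 on the others. That array 1 value rested on 1 spot. SLM1 stood at 0.79 on array 1 as deposited, against -0.20 to -0.07 on the others. The part of single faulty spots in these values was not tested.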

How the results depend on the processing

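Turned calls depended on the processing. Over all spots, the 0 calls became 93 with values not centred, 214 with runs of 400 spots centred and 23 with a gene length trend removed. With agreeing spots the 472 calls (149 higher, 323 lower) became 59 uncentred (37 higher, 22 lower), 194 without the length trend (84 higher, 110 lower), 0 when not turned (a constant as the only term), and from 0 (without array 3 or 4) to 336 with an array left out. Pathway genes called in turned values were 0, but 2 with runs of 400 spots centred (VAC7 and FRT2) and 2 with agreeing spots. As deposited, the 1 call with agreeing spots, from the fit that also held the turned effect, became 0 with a constant as the only term, 20 uncentred, 2 with runs centred, 8 with spots within 0.5 and from 0 to 9 with an array left out. Turned calls on the members are not given under any setting, because the members were chosen with turned values known. The counts of 0 over all spots, turned and as deposited, were also 0 with the placeholder kept, with genes on at least 3 arrays, with the spot median and without each array.

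With values not centred, the median of all genes was 0.32 as deposited, and PMC1 stood at 0.63. Sign counts then changed too: 3 of 9 members kept one sign as deposited (12.1% of all genes), and 5 of 9 Crz1 targets as deposited (11.8%) and 0 turned (11.6%) were above 0 on every array. With an array left out, these counts ranged from 1 to 3 (14.3% to 20.2% of all genes), from 3 to 6 (6.21% to 10.9%) and from 1 to 4 (24.4% to 27.5%). Members that kept their sign on every array in turned values stayed between 3 and 5 under the alternatives run. Over all genes that share ran from 21% (values not centred) to 54.7% (without array 1). Nothing is read from the members' count, because they were chosen with turned values known. RCN1's turned mean became -0.42, from array 2 alone, when only agreeing spots were used. Each array is itself a treated and untreated pair, so tests of its ratios against 0 already use that pairing. The arrays form 1 group, and no further pairing was possible. The cause of these shifts was not tested.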

Other observations

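The 10 genes with the largest as-deposited moderated t above 0 over all spots, none past the threshold (adjusted p = 0.999, limma, a constant as the only term), began with PHO89 and included NCW2, both on the Crz1 target list. RCR1, a membrane protein named for the resistance to Congo red that extra copies confer, was the fourth, at 1.04 ± 0.24 (n = 4, from 0.72 to 1.31). PUT1, proline oxidase, stood at 0.96 ± 0.46, and PMP2, a small regulator of the plasma membrane proton pump, at 0.79 ± 0.30. The others were SNZ1 (1.51 ± 0.46), a vitamin B6 synthesis gene, EDC1 (1.32 ± 0.39), an activator of mRNA decapping, SEC39 (0.97 ± 0.21), IRC10 (2.23 ± 1.02) and MCM10 (0.96 ± 0.41). The turned means of RCR1 and PUT1 were -0.17 and 0.08. These genes were taken by their rank in these arrays, so their values are a description.

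The 10 with the largest t below 0 included HSP26, a small heat shock protein (-0.66 ± 0.15, n = 4), and FET3, the copper oxidase of iron uptake (-0.64 ± 0.34).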
